A study of Mus musculus with 11 samples.

Results

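The genes described here build, modify or bind the extracellular matrix of the neural plate: basement membrane components, fibronectin and fibrillar collagens, proteoglycans, enzymes and receptors of hyaluronan, matricellular proteins, integrins and dystroglycan. They are a list of 40 genes, all of which had a probe set with a single gene symbol, out of 18193 genes with such a probe set on the study's Affymetrix whole-genome mouse array. Where a gene had several probe sets, the brightest on average over the 11 arrays was used. Lama3, Col1a1 and Itga1 lay below the filter for low signal (mean under 4.3 on the log2 scale, the 40th percentile of all probe sets), with values between 3.27 and 4.27 on every array. The other 37 passed the filter and were tested.

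All embryos were C57BL/6 mice. Open neuroepithelium was measured on 3 arrays at E8.5 and on 3 at E9.5. The closed neural tube was measured on 2 arrays at E8.5 and on 3 at E9.5. Open tissue lay caudal to the point where the tube had closed and closed tissue lay rostral to it, so that closure and axial level differ together in each comparison of regions. Tissue was freed in 2.5% pancreatin and 0.5% trypsin for 5 min at E8.5 and 8 min at E9.5, with the adhering notochord, and each array holds tissue pooled by litter (111 embryos in the study, from which 1 of 12 arrays was removed by its authors). The proteases can cut matrix and cell-surface proteins, but RNA was measured here. The labels call the arrays of a group biological replicates.

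A basement membrane forms under the neural epithelium when laminin trimers, made of an alpha, a beta and a gamma chain, bind to cell-surface receptors and are joined to a type IV collagen network by nidogens and heparan sulphate proteoglycans. Integrins are pairs of an alpha and a beta subunit that anchor cells to laminin, collagen or fibronectin. Hyaluronan, a large sugar chain spun out at the cell surface by the Has enzymes, fills the space around the neural folds, and matrix and proteoglycans are long known to take part in neural tube closure.

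Array medians were close to each other (4.80 to 4.90, log2 signal), and the number of arrays limits the precision. The tissue was checked against marker lists, taking the mean log2 signal over each list's measured genes. The 9 neural epithelium markers had means of 8.41 to 8.77 in open and 9.52 to 9.91 in closed tissue, and Sox2 lay between 10.99 and 11.63 on every array. Endothelial markers (12 genes) had means of 4.71 to 4.95. Cdh5 and Pecam1 were at 4.25 or lower on all arrays, but 7 of the 12 genes were above the filter. Of these 7, 2 were higher and 1 lower in closed tissue at E8.5, and 1 was higher and 1 lower at E9.5. Lateral and intermediate mesoderm markers (10 genes, 6 above the filter) lay at 4.30 to 4.54. Somite markers (14 genes, 8 above the filter) lay at 4.30 to 4.54 on 10 arrays and at 5.14 on closed E8.5 replicate 2, where Foxc2 was 6.50 against 3.14 to 4.08 elsewhere. Neural crest markers (7 genes) were at 5.27 to 5.75 in open and 6.54 to 7.17 in closed tissue. Primitive blood markers (7 genes, 4 above the filter) were at 4.65 to 5.67 at E8.5 and 6.16 to 6.83 at E9.5. Notochord markers (7 genes, 6 above the filter) lay at 6.41 to 6.63 in open and 6.37 to 6.68 in closed tissue at E8.5. At E9.5 they lay at 6.06 to 6.26 in open and 6.55 to 6.71 in closed tissue, without overlap, and 3 of the 6 tested were higher in closed tissue there, while 1 was higher and 3 lower at E8.5. Surface ectoderm markers (9 genes) lay at 6.61 to 6.69 in open and 6.06 to 6.24 in closed tissue at E8.5, and at 6.17 to 6.30 in open and 6.04 to 6.09 in closed tissue at E9.5. Endoderm markers (10 genes) lay at 5.96 to 6.04 in open tissue and at 5.62 on both closed arrays at E8.5, and at 5.64 to 5.72 in open and 5.20 to 5.39 in closed tissue at E9.5. The mean log2 signal of both lists was thus lower in closed tissue at each stage, without overlap. Of 8 tested surface ectoderm markers at E9.5, 0 were higher and 1 lower in closed tissue, with a median difference of 0.04. The log2 of that list's summed signal overlapped there (10.02 to 10.11 in open and 9.82 to 10.22 in closed tissue). Cdh1 and Epcam are in both lists. In such bulk tissue, fewer cells of a type and less RNA per cell cannot be told apart. The 3-prime excess, the log2 signal of probe sets at the 3-prime end of Gapdh and Actb minus that at the 5-prime end, is higher where RNA is less intact. It was 2.20 for replicate 1 and 2.48 for replicate 2 of open E9.5, and between 1.14 and 1.82 on the other 9 arrays. The part of the cell type markers in the results below was not tested. For the 3-prime excess, some results with it as a covariate or without the arrays concerned are given below. Not every call gained or lost in those fits is named.

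**Figure D1:**
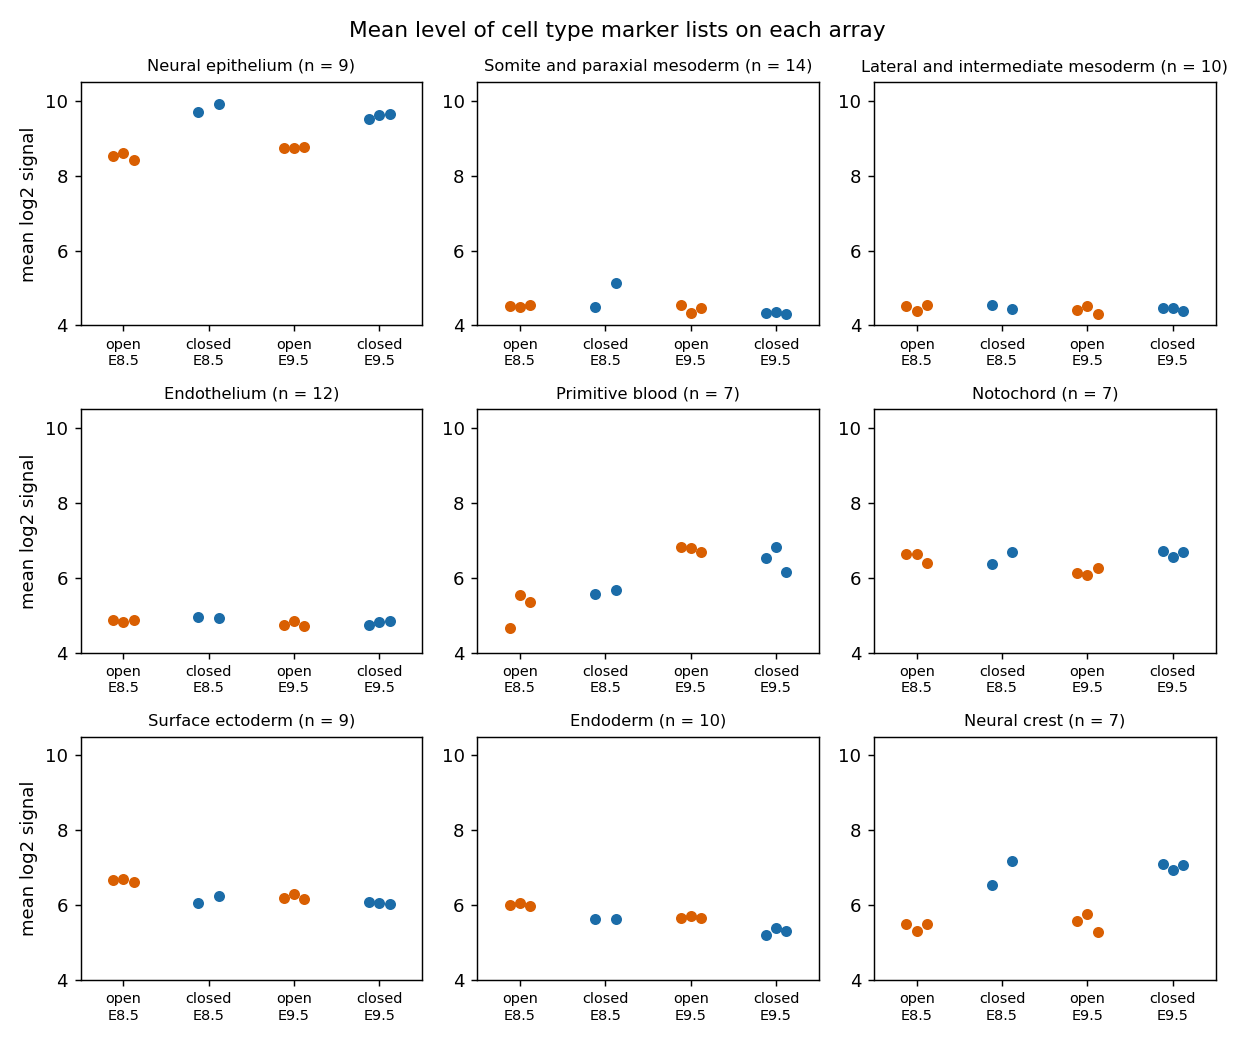
Mean log2 signal of the measured genes of 9 cell type marker lists (panels, with the number of genes) on each of the 11 arrays, by group; orange points are open and blue points closed tissue. Neural epithelium and neural crest lists are higher in closed tissue, the somite list reaches 5.14 on 1 closed E8.5 array, and the primitive blood list is higher at E9.5.

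Closed tube and open plate differed in which matrix and receptor genes they expressed, in both directions. Of the 37 tested genes, 4 were higher and 9 lower in closed tissue at E8.5, and again 4 were higher and 9 lower at E9.5 (limma, Benjamini-Hochberg adjusted p under 0.05 over all 13338 genes tested). That is 35.1% of the tested genes at each stage, against 7.17% of all genes at E8.5 (3.79% higher and 3.38% lower) and 8.54% at E9.5 (2.75% higher and 5.79% lower). With the replicate number as a block, 6 were higher and 10 lower at E8.5 and 7 were higher and 13 lower at E9.5, while 1332 and 2221 of all 13338 genes passed, against 957 and 1139 without it. The block was chosen from correlations in these same data, so its adjusted p-values here and below can be too small. The arrays of the regions did not overlap for 54.1% of the tested genes at each stage, against 27.5% and 22.5% of all genes. The listed genes were chosen with earlier results of these data known. These shares and those given below therefore cannot test whether matrix genes differ more often than other genes. The counts by class given below rest on few genes and are to be read against the share of all genes in the same comparison. Of the 13 genes past the threshold at each stage, 8 were shared with the same direction (61.5% of each list): Col18a1 and Sdc4 were higher in closed tissue, and Gpc4, Itgb5, Itgb8, Nid2, Lamc1 and Cd44 were lower. The median difference of the 37 genes was -0.03 at E8.5 and -0.09 at E9.5, against 0.00 and -0.01 over all genes.

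**Figure D2:**
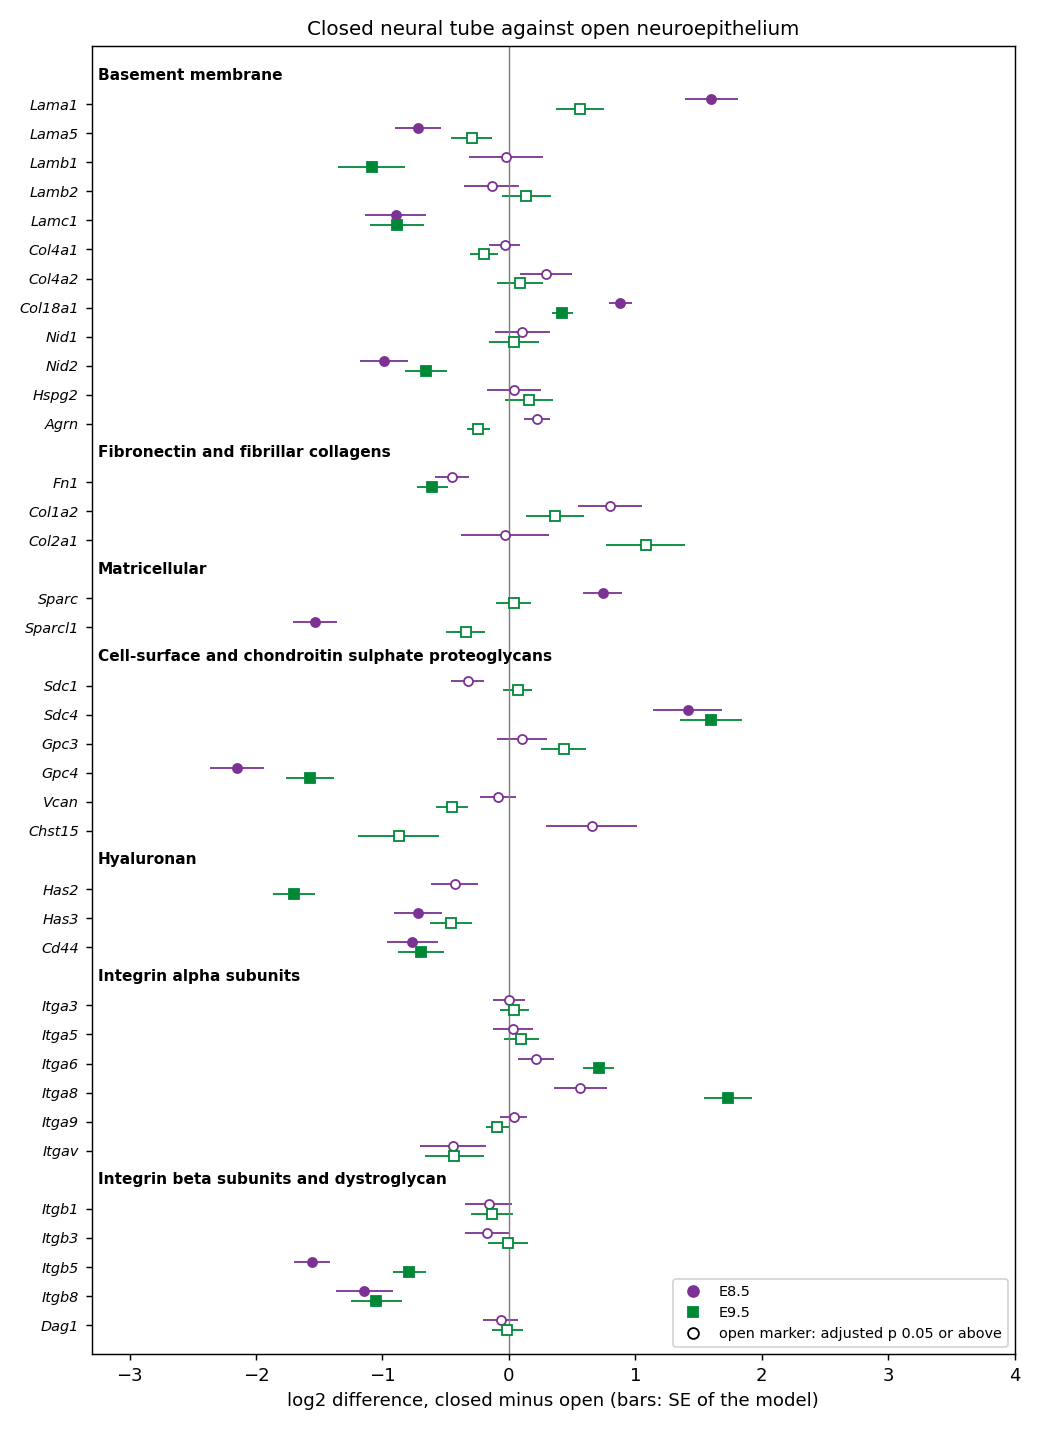
Log2 difference of closed minus open tissue for the 37 tested genes by class, at E8.5 (circles) and E9.5 (squares), with the standard error of the model as bars; filled markers passed an adjusted p of 0.05. Gpc4, Itgb5, Itgb8 and Nid2 lie left of 0 at both stages, while Sdc4 and Col18a1 lie right of 0.

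Among basement membrane genes, the laminin chains did not move together. Of 12 tested, 2 were higher and 3 lower in closed tissue at E8.5, and 1 was higher and 3 lower at E9.5. Lama1, the alpha chain of laminin-111 and an early chain of embryonic basement membranes, had log2 signals of 5.91, 6.16 and 6.35 in open and 7.79 and 7.69 in closed tissue at E8.5. At E9.5 it had 7.06, 7.10 and 6.57 in open and 7.77, 7.46 and 7.17 in closed tissue. The closed arrays lay above the open arrays at both stages, by 1.60 (SE 0.21, adjusted p = 4.94e-04, 3.03-fold) at E8.5. At E9.5 the difference of 0.56 (SE 0.19) did not pass (adjusted p = 0.105), but it passed with the replicate number as a block (0.00828).

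Lama5, another laminin alpha chain of embryonic epithelial basement membranes, went the other way at E8.5. Its signals were 7.07, 7.40 and 7.46 in open and 6.38 and 6.80 in closed tissue (difference -0.72, SE 0.18, adjusted p = 0.0335). The call was lost without open E8.5 replicate 2 (0.113) or 3 (0.133), closed E8.5 replicate 1 (0.262), open E9.5 replicate 1 (0.0545) or closed E9.5 replicate 3 (0.0502). It was also lost with the mean of all probe sets of the gene (-0.40, adjusted p = 0.138). At E9.5 the difference was -0.29 (SE 0.16, adjusted p = 0.381).

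Lamc1, the gamma chain of most laminins, had 7.85, 8.14 and 8.12 in open and 6.87 and 7.42 in closed tissue at E8.5, and 8.39, 7.79 and 8.53 against 7.62, 7.16 and 7.28 at E9.5. Groups did not overlap at either stage, with differences of -0.90 (SE 0.24, adjusted p = 0.0446) and -0.89 (SE 0.21, adjusted p = 0.0226). A dimmer probe set of the same gene differed by -0.11 and -0.26 and did not pass. With the mean of all Lamc1 probe sets both calls were lost (-0.50, adjusted p = 0.71, and -0.57, adjusted p = 0.425). Centring the arrays on the median (0.0715) or array weights (0.0624) also lost the E8.5 call. The E8.5 call was lost without each of 8 of the 11 arrays, all but closed E8.5 replicate 2 and open E9.5 replicates 2 and 3 (adjusted p up to 0.311, without closed E8.5 replicate 1). The E9.5 call was lost without open E9.5 replicate 1 (0.0992) or 3 (0.0549) or closed E9.5 replicate 2 (0.102) or 3 (0.0836).

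Lamb1, a beta chain, differed between regions at E9.5 and had overlapping groups at E8.5. Its signals at E9.5 were 10.70, 10.92 and 9.99 in open and 9.94, 9.45 and 8.98 in closed tissue (-1.09, SE 0.26, adjusted p = 0.0224). Open E9.5 replicates 1 and 2, those with the highest 3-prime excess, were its highest arrays. The call was lost without either of them (0.0953 and 0.0936), without both (-0.54, adjusted p = 0.462), and without closed E9.5 replicate 2 (0.0767) or 3 (0.0964). At E8.5 Lamb1 differed by -0.02 (SE 0.29). Lamb2, the beta chain of later basement membranes, differed by -0.14 (SE 0.22) and 0.14 (SE 0.20), with neither past the threshold.

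The network and linker genes behaved individually. Col18a1, a collagen with heparan sulphate chains whose C-terminal fragment is endostatin, had 11.19, 11.26 and 11.13 in open and 12.06 and 12.09 in closed tissue at E8.5. At E9.5 it had 10.96, 10.90 and 10.94 in open and 11.41, 11.22 and 11.44 in closed tissue. It was higher in closed tissue by 0.88 (SE 0.09, adjusted p = 8.18e-05) and 0.42 (SE 0.08, adjusted p = 0.00716), and a second probe set gave 0.82 and 0.49, both past the threshold. Without the pair of open E9.5 replicates 1 and 2 the E9.5 call was lost (adjusted p = 0.116).

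Nid2, a nidogen that links laminin to type IV collagen, had 8.76, 8.46 and 8.75 in open and 7.60 and 7.74 in closed tissue at E8.5. At E9.5 it had 8.46, 8.10 and 8.02 against 7.81, 7.26 and 7.55. Open arrays were higher without overlap at both stages, with differences of -0.99 (SE 0.19, adjusted p = 0.00611) and -0.66 (SE 0.17, adjusted p = 0.0312). The E8.5 call was lost without closed E8.5 replicate 1 (0.0519). The E9.5 call was lost without open E8.5 replicate 3 (0.0506), open E9.5 replicate 1 (0.142) or 2 (0.0589), closed E9.5 replicate 2 (0.136) or 3 (0.0873), and without the pair of open E9.5 replicates 1 and 2 (0.355). Quantile normalization also lost the E9.5 call of Nid2 (-0.58, adjusted p = 0.0744). Nid1, the other nidogen, differed by 0.10 (SE 0.22) and 0.04 (SE 0.20).

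The type IV collagen chains and the large heparan sulphate proteoglycans of the basement membrane did not differ between the regions past the threshold. Col4a1 differed by -0.03 (SE 0.12) and -0.19 (SE 0.11), and Col4a2 by 0.29 (SE 0.20) and 0.09 (SE 0.18). Hspg2, which encodes perlecan, differed by 0.04 (95% confidence interval -0.42 to 0.51) and 0.16 (-0.26 to 0.57). Agrn, which encodes agrin, had no overlap between regions at either stage, with closed arrays above open arrays by 0.22 (SE 0.10, adjusted p = 0.351) at E8.5 and below them by 0.24 at E9.5 (difference -0.24, SE 0.09, adjusted p = 0.161).

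Fn1 encodes fibronectin, which is bound by integrins of the alpha 5 and alpha v subunits. Its signals were 10.79, 10.90 and 10.85 in open and 10.33 and 10.47 in closed tissue at E8.5, and 11.59, 11.39 and 11.09 against 10.88, 10.72 and 10.67 at E9.5. Open arrays were above closed arrays at both stages. The difference was -0.60 (SE 0.12, adjusted p = 0.00821) at E9.5, and without the pair of open E9.5 replicates 1 and 2 it was -0.34 and the call was lost (adjusted p = 0.259). At E8.5 it was -0.45 (SE 0.14, adjusted p = 0.0833) and passed with the replicate number as a block (0.0146).

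Of the fibrillar collagens, Col1a2 had 6.48, 6.58 and 6.44 in open and 6.76 and 7.84 in closed tissue at E8.5. The high value was on closed E8.5 replicate 2, the array with the higher somite markers. The difference of 0.80 (SE 0.25, adjusted p = 0.0977) did not pass. It passed with the replicate block (0.77, adjusted p = 0.0351) and with the 3-prime excess as a covariate (0.0451). Without closed E8.5 replicate 1 the value was 1.34, but closed E8.5 was then the single array with the higher somite markers, and the spread came from the other groups only. Col2a1, a cartilage collagen that embryos also express in notochord and neural tube, had 8.02, 7.67 and 8.71 in open and 9.005, 8.99 and 9.65 in closed tissue at E9.5. The notochord markers were also higher in closed tissue at E9.5, and their part in this value was not tested. The Col2a1 arrays did not overlap, but the difference of 1.08 (SE 0.31) had an adjusted p of 0.0567, which was 4.78e-05 with the replicate block. With the 3-prime excess as a covariate it was 0.63 (adjusted p = 0.0302), and it passed too with quantile normalization (1.15, adjusted p = 0.021), without open E9.5 replicate 3 (1.37, adjusted p = 0.0115) and without closed E8.5 replicate 1 or 2 (adjusted p = 0.0312 for both).

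The matricellular genes differed at E8.5. Sparc, which binds collagen and calcium, had 7.48, 7.23 and 7.30 in open and 7.94 and 8.22 in closed tissue (0.74, SE 0.16, adjusted p = 0.0117), a call that was lost without closed E8.5 replicate 2 (0.131). Sparcl1, its relative, had 8.17, 8.16 and 8.43 in open and 6.53 and 6.92 in closed tissue, 2.89-fold lower there (-1.53, SE 0.17, adjusted p = 1.30e-04). At E9.5 the differences were 0.04 (SE 0.14) for Sparc and -0.34 (SE 0.15, adjusted p = 0.256) for Sparcl1.

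The class of cell-surface and chondroitin sulphate proteoglycans, in which the sulphotransferase gene Chst15 was also placed, held differences in opposite directions. Of 6 tested genes in this class, 1 was higher (Sdc4) and 1 lower (Gpc4) in closed tissue at each stage. Gpc4, a glypican held at the membrane by a lipid anchor, had log2 signals of 9.25, 9.38 and 9.61 in open and 7.52 and 7.01 in closed tissue at E8.5. At E9.5 it had 10.12, 10.32 and 9.80 in open and 8.30, 8.80 and 8.41 in closed tissue. Every open array was above every closed array, by 4.44-fold at E8.5 (-2.15, SE 0.21, adjusted p = 4.19e-05) and 2.98-fold at E9.5 (-1.57, SE 0.19, adjusted p = 1.94e-04). A second probe set differed by -1.61 and -1.59.

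Sdc4, a transmembrane syndecan that works with integrins at focal adhesions, had the reverse pattern. Its signals were 6.40, 6.23 and 6.54 in open and 8.28 and 7.32 in closed tissue at E8.5, and 5.48, 5.68 and 5.05 against 7.20, 7.12 and 6.67 at E9.5. Closed arrays lay above open arrays by 1.41 (SE 0.27, adjusted p = 0.00708) and 1.60 (SE 0.25, adjusted p = 0.00134), with 1.81 and 0.93 from a second probe set. The E8.5 call was lost without closed E8.5 replicate 1 (0.0711).

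Gpc3, the glypican whose gene lies beside Gpc4, differed by 0.10 (SE 0.20) and 0.44 (SE 0.18, adjusted p = 0.197). The latter passed with the replicate block (0.00566). Sdc1, the syndecan of epithelia, differed by -0.33 (SE 0.13) and 0.07 (SE 0.12). Vcan encodes versican, a chondroitin sulphate proteoglycan that binds hyaluronan. It had 11.11, 11.05 and 11.14 in open and 10.75, 10.59 and 10.63 in closed tissue at E9.5 (-0.45, SE 0.13, adjusted p = 0.0526, and 0.00287 with the replicate block). A dimmer probe set of Vcan differed by -0.90 there and passed.

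Upstream sequences are shown for Gpc4, Itgb5 and Itgb8, which were higher in open tissue at both stages, and for Sdc4, which was higher in closed tissue, so that genes of opposite pattern can be set side by side. They are RefSeq sequences of build GRCm38.p6, the 250 bases before each annotated start, read 5′ to 3′ on the gene's strand. The sites are chrX:52164924-52165173 (minus strand) for Gpc4, chr16:33829415-33829664 (plus) for Itgb5, chr12:119238277-119238526 (minus) for Itgb8 and chr2:164443189-164443438 (minus) for Sdc4. Capitals mark matches on either strand to the nuclear receptor core AGGTCA, the GC box GGGCGG or the TATA core TATAA.
Gpc4: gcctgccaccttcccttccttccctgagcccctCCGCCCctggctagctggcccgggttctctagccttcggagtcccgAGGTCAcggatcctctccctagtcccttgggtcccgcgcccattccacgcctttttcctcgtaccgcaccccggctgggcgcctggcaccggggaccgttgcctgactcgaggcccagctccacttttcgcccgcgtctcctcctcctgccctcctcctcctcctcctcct
Itgb5: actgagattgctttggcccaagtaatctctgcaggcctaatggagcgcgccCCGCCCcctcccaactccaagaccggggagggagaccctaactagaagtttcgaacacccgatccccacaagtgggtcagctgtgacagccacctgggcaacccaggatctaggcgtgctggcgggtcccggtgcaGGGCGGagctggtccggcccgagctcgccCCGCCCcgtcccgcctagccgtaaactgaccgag
Itgb8: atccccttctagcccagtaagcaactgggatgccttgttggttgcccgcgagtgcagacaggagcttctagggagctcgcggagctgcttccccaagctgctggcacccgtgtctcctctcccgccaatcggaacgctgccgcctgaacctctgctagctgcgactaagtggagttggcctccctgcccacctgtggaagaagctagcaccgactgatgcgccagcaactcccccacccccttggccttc
Sdc4: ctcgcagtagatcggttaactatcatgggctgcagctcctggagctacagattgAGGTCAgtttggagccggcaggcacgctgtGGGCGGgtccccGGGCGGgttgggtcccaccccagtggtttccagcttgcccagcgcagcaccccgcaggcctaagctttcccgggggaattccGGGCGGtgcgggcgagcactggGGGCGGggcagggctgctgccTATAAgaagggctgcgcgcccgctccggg
The windows are rich in G and C (62.4% for Itgb8 to 68.4% for Gpc4). The AGGTCA core was found once in Gpc4 and once in Sdc4, which differ in opposite directions, and in no window of the other 26 listed genes that have a promoter in the table. Over all 32851 windows of this length 14.0% hold it. The GC box was matched 4 times in Sdc4, 3 times in Itgb5, 1 time in Gpc4 and 0 times in Itgb8 (32.7% of all windows have a match), and the TATA core 1 time in Sdc4 (22.8% of all windows). These are matches of letters and were not tested as binding sites.

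The hyaluronan genes were lower in closed tissue or did not pass. Of 3 tested, 2 were lower at each stage, against 3.38% of all genes at E8.5 and 5.79% at E9.5. Has2, the main hyaluronan synthase of the early embryo, had 7.47, 7.59 and 8.01 in open and 7.28 and 7.24 in closed tissue at E8.5, and 9.53, 9.60 and 9.29 against 7.89, 7.90 and 7.51 at E9.5. The gap was wide at E9.5, where closed tissue was 3.26-fold lower (-1.70, SE 0.17, adjusted p = 3.68e-05), and small at E8.5 (-0.43, SE 0.18, adjusted p = 0.292). A second Has2 probe set gave -1.70 and -0.24 for the same comparisons.

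Has3, another hyaluronan synthase, had low signal (3.66 to 4.83 over all arrays, around the filter), so the size of its difference depends on the background. It was lower in closed tissue at E8.5 (-0.72, SE 0.19, adjusted p = 0.0389). That call was lost without open E8.5 replicate 1 (0.0642), 2 (0.139) or 3 (0.0785), closed E8.5 replicate 2 (0.326) or closed E9.5 replicate 2 (0.0621). At E9.5 the difference was -0.46 (SE 0.17, adjusted p = 0.14, and 0.0493 with the replicate block).

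Cd44, a receptor for hyaluronan, had 7.28, 7.59 and 7.25 in open and 6.49 and 6.73 in closed tissue at E8.5, and 6.91, 6.73 and 6.70 against 6.36, 5.66 and 6.25 at E9.5. Open arrays were the higher ones at both stages, with differences of -0.76 (SE 0.20, adjusted p = 0.0423) and -0.69 (SE 0.18, adjusted p = 0.034). A second probe set gave -0.53 and -0.51, neither past the threshold. The mean of all Cd44 probe sets differed by -0.31 (adjusted p = 0.0812) and -0.27 (adjusted p = 0.0794), and both calls were lost. The E8.5 call was lost without each of 8 of the 11 arrays, all but open E9.5 replicate 3 and closed E9.5 replicates 1 and 2 (adjusted p up to 0.236, without closed E8.5 replicate 1), and without the pair of open E9.5 replicates 1 and 2 (0.0628). The E9.5 call was lost without open E8.5 replicate 1 (0.053) or 3 (0.0524), open E9.5 replicate 1 (0.137) or 2 (0.0756), closed E9.5 replicate 2 (0.112) or 3 (0.0539), and without the pair of open E9.5 replicates 1 and 2 (0.319).

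Integrin alpha subunits were higher in closed tissue where they passed. Of 6 tested, 0 passed at E8.5 (7.17% of all genes passed) and 2 were higher at E9.5 (2.75% of all genes). Itga8, which pairs with beta 1 and binds RGD-bearing matrix proteins such as fibronectin and nephronectin, had 4.35, 4.77 and 3.999 in open and 6.37, 5.79 and 6.16 in closed tissue at E9.5 (1.74, SE 0.19, adjusted p = 9.45e-05). At E8.5 it had 4.25, 4.06 and 4.32 in open and 4.73 and 4.82 in closed tissue (0.57, SE 0.21, adjusted p = 0.193). Groups did not overlap at either stage, and open tissue lay near the filter.

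Itga6, a laminin-binding subunit, had 9.09, 9.17 and 9.38 in open and 9.88, 9.80 and 10.09 in closed tissue at E9.5 (0.71, SE 0.12, adjusted p = 0.00324). The call was lost without the pair of open E9.5 replicates 1 and 2 (0.139), and a second probe set gave 0.52, which did not pass. At E8.5 the difference was 0.21 (SE 0.14). Itgav, the alpha subunit that pairs with beta 3, beta 5 and beta 8, differed by -0.44 (SE 0.26, adjusted p = 0.545) and -0.43 (SE 0.23, adjusted p = 0.365). It passed at E9.5 with the replicate block (0.00825) and at E8.5 with the 3-prime excess as a covariate (-0.61, adjusted p = 0.00934). The fibronectin receptor subunit Itga5 differed by 0.03 (95% confidence interval -0.31 to 0.38) and 0.10 (-0.21 to 0.41), and the laminin receptor subunit Itga3 by 0.00 (-0.27 to 0.27) and 0.04 (-0.20 to 0.29).

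Among beta subunits, Itgb5 and Itgb8, which both pair with alpha v, passed the threshold at both stages, and Itgb3, another partner of alpha v, did not. Itgb5 had 10.73, 10.94 and 10.87 in open and 9.23 and 9.35 in closed tissue at E8.5, and 10.44, 10.24 and 10.71 against 9.58, 9.62 and 9.83 at E9.5. It was lower in closed tissue by 2.94-fold (-1.56, SE 0.15, adjusted p = 2.86e-05) and 1.73-fold (-0.79, SE 0.13, adjusted p = 0.00216), and its 3 other probe sets passed at both stages in the same direction.

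Itgb8, whose pair with alpha v releases active TGF-beta from its latent complex, had 7.17, 6.93 and 7.51 in open and 5.94 and 6.18 in closed tissue at E8.5. At E9.5 it had 8.44, 8.29 and 7.85 in open and 7.36, 7.25 and 6.82 in closed tissue. The open arrays were higher at both stages (-1.14, SE 0.23, adjusted p = 0.00787, and -1.05, SE 0.20, adjusted p = 0.00595). The E8.5 call was lost without closed E8.5 replicate 1 (0.0697) and the E9.5 call without the pair of open E9.5 replicates 1 and 2 (0.216). Itgb1, the beta subunit shared by most matrix-binding integrins, differed by -0.16 (95% confidence interval -0.57 to 0.25) and -0.13 (-0.50 to 0.23). Dag1, which encodes the laminin receptor dystroglycan, differed by -0.07 (-0.36 to 0.23) and -0.01 (-0.28 to 0.25). Itgb3, near the filter, differed by -0.17 (SE 0.17) and -0.01 (SE 0.16).

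**Figure D3:**
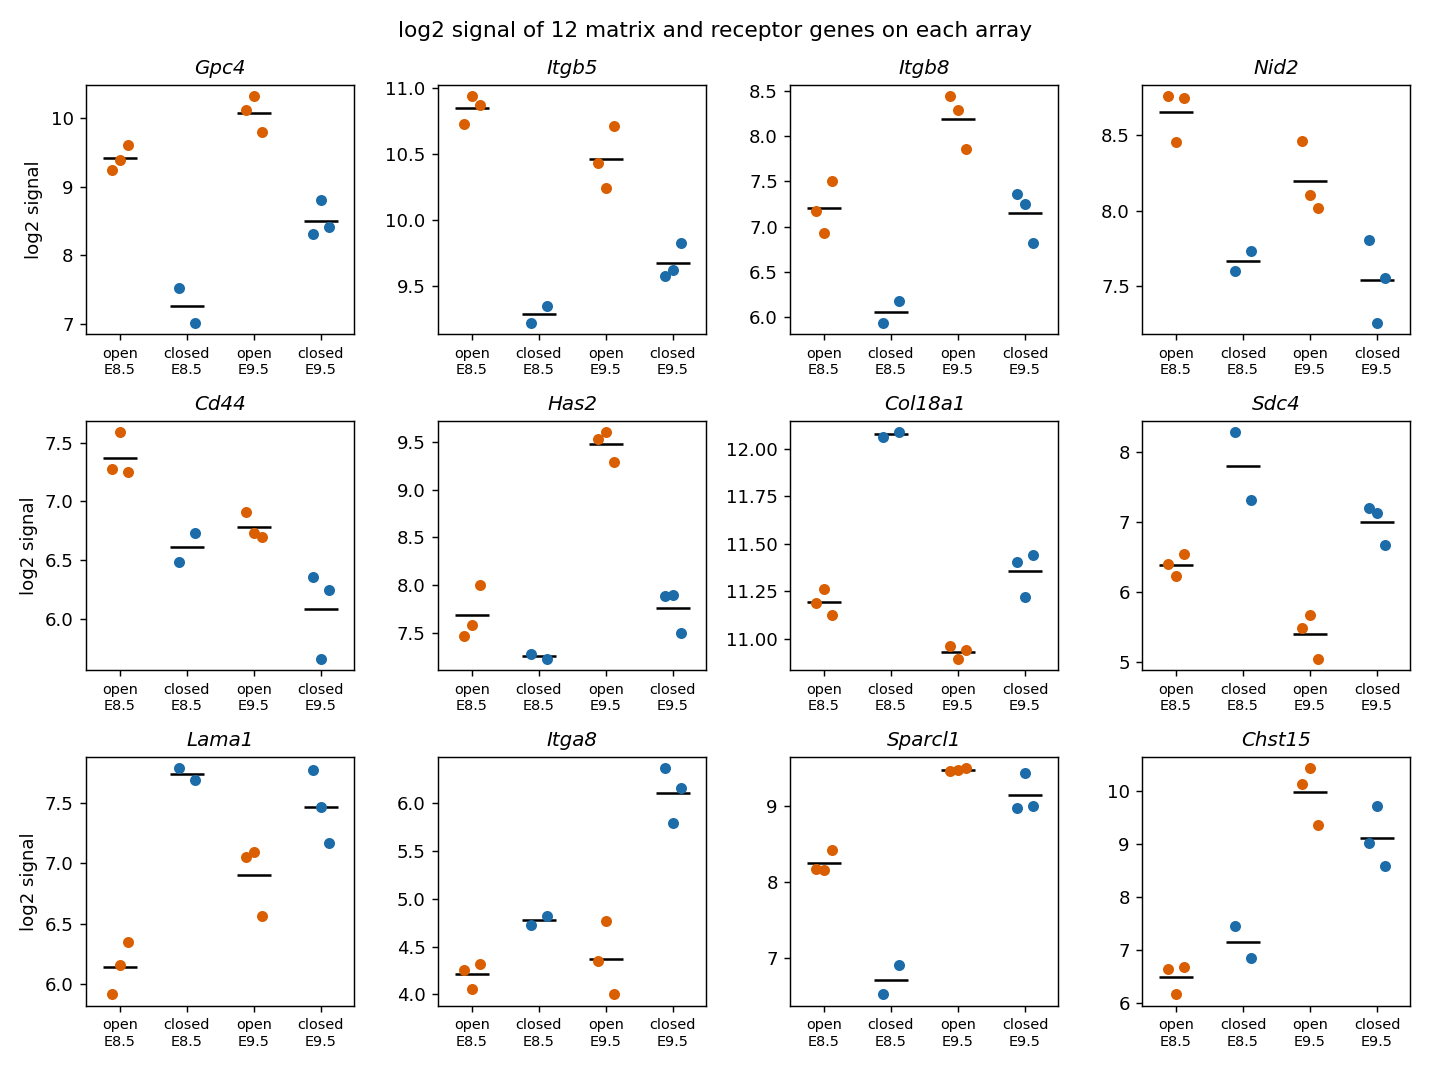
Log2 signal of 12 genes on each array (points, orange open and blue closed), with the mean of each group as a black line; each panel has its own scale. Gpc4, Itgb5, Itgb8, Nid2 and Cd44 are higher in open tissue at both stages, Col18a1 and Sdc4 are higher in closed tissue, and Has2, Sparcl1 and Chst15 have their highest group mean in open tissue at E9.5.

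From E8.5 to E9.5, Chst15, Sparcl1 and Itgb8 rose and Col4a1 fell in both tissues, and Has2 and Sparc rose in open tissue. In open tissue 7 of the 37 tested genes were higher and 2 lower at E9.5 than at E8.5, 24.3% against 5.02% of all genes (3.61% higher and 1.42% lower). In closed tissue 6 were higher and 2 lower, 21.6% against 2.42% of all genes (0.960% higher and 1.46% lower). Arrays of the stages did not overlap for 48.6% of the tested genes in open and 45.9% in closed tissue, against 21.8% and 21.2% of all genes. The time in protease also differed between the stages, and primitive blood markers were higher at E9.5, so these cannot be told apart from stage. The region and stage comparisons share arrays.

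**Figure D4:**
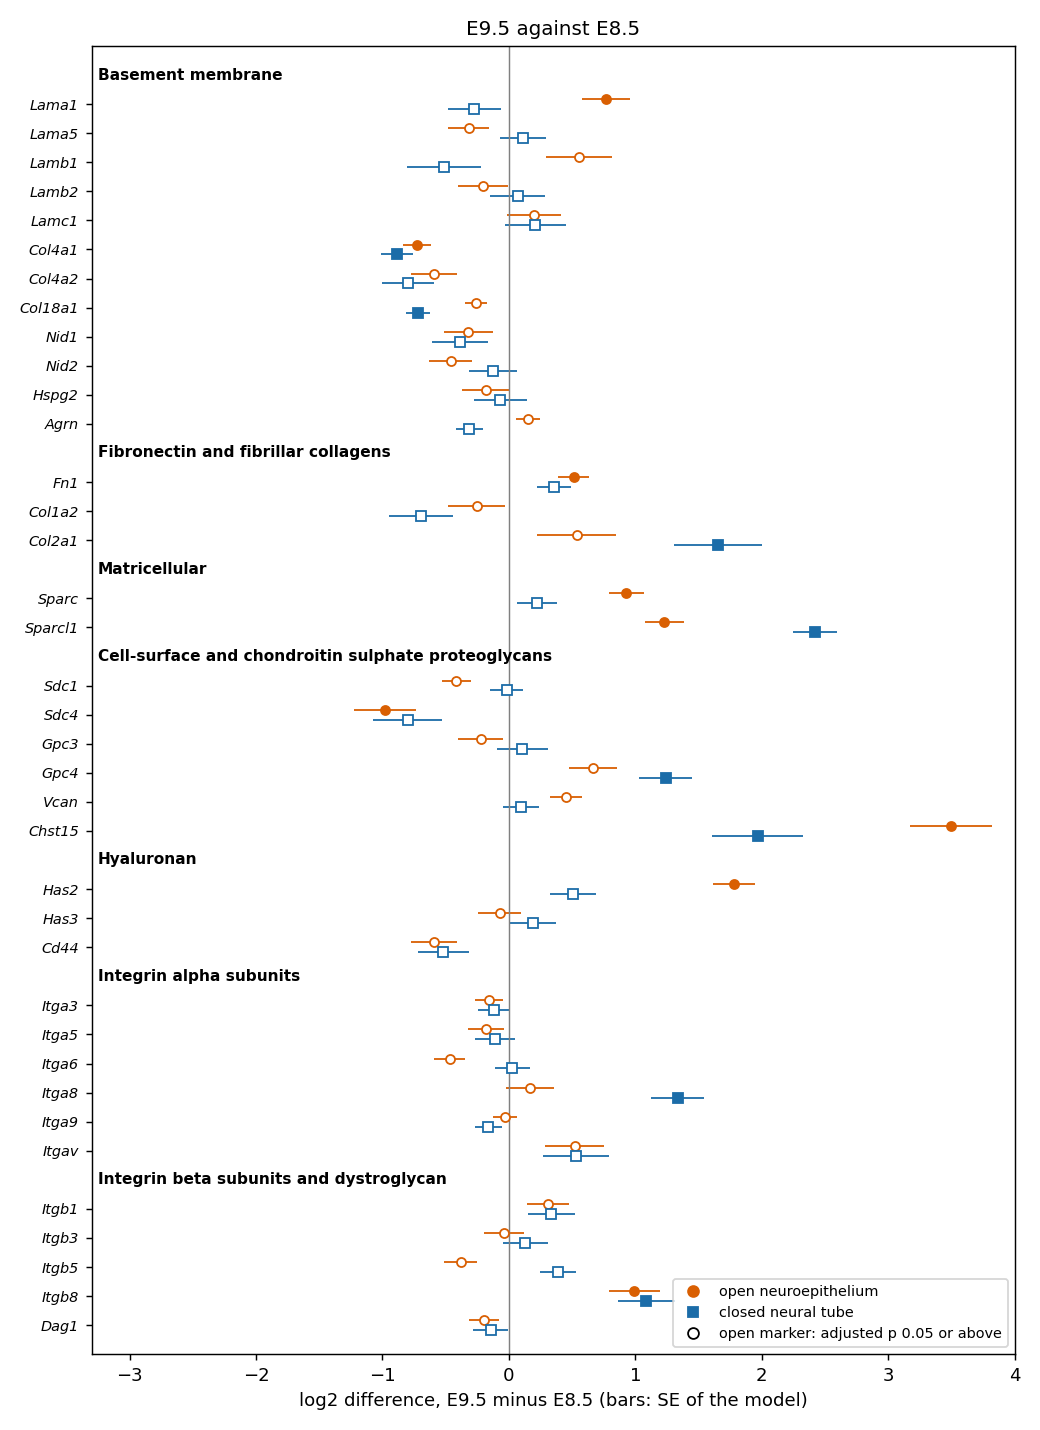
Log2 difference of E9.5 minus E8.5 for the 37 tested genes by class, in open (circles) and closed (squares) tissue, with the standard error of the model as bars; filled markers passed an adjusted p of 0.05. Chst15 and Sparcl1 lie right of 0 in both tissues, Col4a1 lies left of 0 in both, and Has2 passed in open tissue.

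Chst15, a sulphotransferase that adds a second sulphate to chondroitin sulphate, had the greatest rise in open tissue of the 37 genes. Its signals there were 6.64, 6.15 and 6.67 at E8.5, then 10.14, 10.44 and 9.37 at E9.5, an 11.3-fold rise (3.49, SE 0.32, adjusted p = 9.67e-05). In closed tissue they were 7.44 and 6.84 at E8.5, then 9.02, 9.72 and 8.58 at E9.5 (1.97, SE 0.36, adjusted p = 0.0139). The closed call was lost without closed E8.5 replicate 2 (0.126) or closed E9.5 replicate 2 (0.0517). A dimmer probe set rose by 2.24 in open tissue, past the threshold, and differed by 1.04 in closed tissue.

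The region difference of Chst15 was 0.66 (SE 0.36, adjusted p = 0.491) at E8.5 and -0.87 (SE 0.32, adjusted p = 0.141) at E9.5. Both passed with the replicate number as a block (0.75, adjusted p = 0.00372, and -0.87, adjusted p = 1.97e-04), as did the change of the region difference between stages (-1.62, adjusted p = 5.69e-04, against -1.53 and 0.247 without the block).

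Has2 rose in open tissue by 3.44-fold (1.78, SE 0.17, adjusted p = 1.03e-04) and differed by 0.51 (SE 0.18, adjusted p = 0.287) in closed tissue. The difference between these changes passed in the test of the interaction of region and stage (-1.27, SE 0.25, adjusted p = 0.0328). Of the 37 genes, 1 was higher and 1 lower in that test (5.4%, against 1.25% of all genes, 0.300% higher and 0.952% lower). The Has2 interaction was lost without each of 9 of the 11 arrays, all but open E8.5 replicate 3 and open E9.5 replicate 3 (adjusted p up to 0.1, without closed E8.5 replicate 2). A second probe set gave -1.46, which did not pass. The interaction was lost too with quantile normalization (-1.18, adjusted p = 0.0669), with the mean of all probe sets (-1.37, adjusted p = 0.0659) and without the pair of open E9.5 replicates 1 and 2 (0.281).

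Sparcl1 was the other gene in that test. Its signals in open tissue were 8.17, 8.16 and 8.43 at E8.5, then 9.46, 9.48 and 9.50 at E9.5. In closed tissue they were 6.53 and 6.92 at E8.5, then 8.97, 9.44 and 9.01 at E9.5. It rose by 2.34-fold in open (1.23, SE 0.15, adjusted p = 7.05e-04) and 5.35-fold in closed tissue (2.42, SE 0.17, adjusted p = 1.77e-05), so that the region gap of E8.5 narrowed (interaction 1.19, SE 0.23, adjusted p = 0.0328). The interaction was lost without each of 8 arrays, all but closed E8.5 replicate 2, open E9.5 replicate 3 and closed E9.5 replicate 1 (adjusted p up to 0.119, without closed E8.5 replicate 1), and without the pair of open E9.5 replicates 1 and 2 (0.227).

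Sparc rose in open tissue from 7.48, 7.23 and 7.30 to 8.39, 8.34 and 8.07 (0.93, SE 0.14, adjusted p = 0.0024). This was lost without the pair of open E9.5 replicates 1 and 2 (0.135). In closed tissue Sparc differed by 0.22 (SE 0.16, adjusted p = 0.819).

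With the replicate block the interaction also passed for Lama1 (-1.14, adjusted p = 0.00861), Lamb1 (-1.13, adjusted p = 0.0118), Itgb5 (0.76, adjusted p = 0.0132) and Col2a1 (1.13, adjusted p = 0.00625), which gave 3 genes higher and 4 lower. Without the block these had adjusted p values of 0.151, 0.358, 0.115 and 0.456. Itga8 passed with the 3-prime excess as a covariate (1.47, adjusted p = 0.00614, against 0.097 without it).

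Among basement membrane genes, 1 was higher and 1 lower at E9.5 in open tissue, and 0 were higher and 2 lower in closed tissue. Col4a1 had 10.16, 10.31 and 10.34 at E8.5, then 9.63, 9.35 and 9.65 at E9.5 in open tissue. In closed tissue it had 10.20 and 10.27 at E8.5, then 9.44, 9.29 and 9.31 at E9.5. It fell in both tissues without overlap (-0.73, SE 0.11, adjusted p = 0.00261, and -0.89, SE 0.12, adjusted p = 0.00224), and a second probe set gave -0.61 and -0.96, both past the threshold. The open call was lost without the pair of open E9.5 replicates 1 and 2 (0.0831).

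Col4a2, which lies head to head with Col4a1 so that their RefSeq promoter windows overlap by 78 bases, had 7.74, 7.84 and 7.82 at E8.5, then 7.28, 6.96 and 7.39 at E9.5 in open tissue. In closed tissue it had 7.81 and 8.38 at E8.5, then 7.54, 6.9995 and 7.35 at E9.5. The stages did not overlap in either tissue, but the differences of -0.59 (SE 0.18, adjusted p = 0.102) and -0.80 (SE 0.20, adjusted p = 0.0781) did not pass. With quantile normalization they passed (-0.65, adjusted p = 0.0305, and -0.76, adjusted p = 0.0377).

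Col18a1 fell in closed tissue from 12.06 and 12.09 to 11.41, 11.22 and 11.44 (-0.72, SE 0.09, adjusted p = 0.00131). In open tissue it differed by -0.26 (SE 0.08, adjusted p = 0.115). Lama1 rose in open tissue by 0.77 (SE 0.19, adjusted p = 0.0392). That call was lost without open E8.5 replicate 1 (0.179), 2 (0.105) or 3 (0.0601), open E9.5 replicate 1 (0.158) or 2 (0.152) or closed E9.5 replicate 2 (0.0652). It was lost with the 3-prime excess as a covariate (0.47, adjusted p = 0.108), with quantile normalization (0.082) and without the pair of open E9.5 replicates 1 and 2 (0.43, adjusted p = 0.552).

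Fn1 rose in open tissue by 0.51 (SE 0.12, adjusted p = 0.0334), and its E8.5 and E9.5 arrays did not overlap. The call was lost without open E8.5 replicate 1 (0.142), 2 (0.079) or 3 (0.108), open E9.5 replicate 1 (0.143) or 2 (0.114) or closed E9.5 replicate 2 (0.0558). It was also lost with the 3-prime excess as a covariate (0.36, adjusted p = 0.0773) and without the pair of open E9.5 replicates 1 and 2 (0.24, adjusted p = 0.538). The mean of all Fn1 probe sets gave 0.45 in open tissue, and the call was lost (adjusted p = 0.0646). In closed tissue the Fn1 difference was 0.36 (SE 0.14, adjusted p = 0.327).

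Col2a1 rose in closed tissue from 7.10 and 8.03 to 9.005, 8.99 and 9.65 (1.65, SE 0.35, adjusted p = 0.0303). The call was lost without open E8.5 replicate 3 (0.0562), closed E8.5 replicate 1 (1.18, adjusted p = 0.232), open E9.5 replicate 1 (0.0523) or closed E9.5 replicate 1 (0.0598), 2 (0.0762) or 3 (0.0992). In open tissue Col2a1 differed by 0.54 (SE 0.31, adjusted p = 0.412), and by 1.17 (adjusted p = 0.00217) with the 3-prime excess as a covariate.

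Of the proteoglycans, Gpc4 rose in closed tissue from 7.52 and 7.01 to 8.30, 8.80 and 8.41 (1.24, SE 0.21, adjusted p = 0.00852), a call lost without closed E8.5 replicate 2 (0.0968), and a second probe set gave 0.67, which did not pass. In open tissue it differed by 0.66 (SE 0.19, adjusted p = 0.0733). Sdc4 fell in open tissue by 0.98 on the log2 scale (SE 0.25, adjusted p = 0.0404) and differed by -0.80 (SE 0.27, adjusted p = 0.231) in closed tissue. A second Sdc4 probe set gave -0.34 in open tissue, which did not pass, and -1.22 in closed tissue, which did. The open call was lost without each of 8 of the 11 arrays, all but closed E8.5 replicates 1 and 2 and closed E9.5 replicate 3 (adjusted p up to 0.151, without open E8.5 replicate 3). It was also lost with quantile normalization (0.0639) and without the pair of open E9.5 replicates 1 and 2 (0.11). In open tissue Vcan differed by 0.45 (SE 0.13, adjusted p = 0.0693) and passed with the replicate number as a random block (0.0485).

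Of the integrins, Itgb8 rose in both tissues, by 0.99 (SE 0.20, adjusted p = 0.0142) in open and 1.09 (SE 0.23, adjusted p = 0.028) in closed tissue. The open call was lost without open E8.5 replicate 1 (0.0646) or 2 (0.0673), or open E9.5 replicate 1 (0.0716) or 2 (0.0602) or both (0.65, adjusted p = 0.384). The closed call was lost without closed E8.5 replicate 1 (0.172) or 2 (0.081) or closed E9.5 replicate 1 (0.0933) or 2 (0.119). Itga8 rose in closed tissue from 4.73 and 4.82 to 6.37, 5.79 and 6.16 (1.33, SE 0.21, adjusted p = 0.00524) and differed by 0.16 (SE 0.19) in open tissue. Itga6 differed by -0.47 (SE 0.12, adjusted p = 0.0563) in open tissue and passed with the random block (0.0391). Itgb1 differed by 0.31 (95% confidence interval -0.05 to 0.67) and 0.34 (-0.07 to 0.74).

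In all, 21 of the 37 tested genes passed in at least 1 of the 5 comparisons and 16 in none. Those 16 were Agrn, Col1a2, Col4a2, Dag1, Gpc3, Hspg2, Itga3, Itga5, Itga9, Itgav, Itgb1, Itgb3, Lamb2, Nid1, Sdc1 and Vcan. Their largest differences were those of Col1a2 (0.80) and Col4a2 (-0.80), and Dag1 stayed between -0.20 and 0.05.

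Other matrix genes were taken from lists of 186 genes, of which 173 had a probe set and 144 were tested. At E8.5, 9 were higher and 11 lower in closed tissue, and at E9.5 7 were higher and 19 lower. These are counts among 144 genes, to be read against the 7.17% and 8.54% of all genes that passed. The matrix processing list, which holds proteases, their inhibitors and collagen-modifying enzymes, had 1 higher and 8 lower of 29 at E9.5 (2.75% and 5.79% of all genes), with a median of -0.18 against -0.01 over all genes. At E8.5 it had 2 higher and 1 lower of 29, with a median of -0.09. Among these 8, the aggrecanase family gene Adamts9 differed by -1.19 (SE 0.18, adjusted p = 0.00125, lost without the pair of open E9.5 replicates 1 and 2 at 0.0633). The protease gene Plat was higher in closed tissue at both stages (1.25, SE 0.22, and 1.26, SE 0.20). Of 8 tested integrin subunits outside the members, 0 passed in any of the 4 comparisons of region or stage. Of all genes, 2.42% to 8.54% passed in these comparisons, and with 8 genes a count of 0 is near that share.

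Smoc2, a calcium-binding basement membrane protein, had 7.11, 7.41 and 7.35 in open and 5.12 and 4.44 in closed tissue at E8.5. At E9.5 it had 8.37, 7.97 and 8.35 in open and 5.19, 5.40 and 5.35 in closed tissue. It was lower in closed tissue by 2.51 and 2.91 (differences -2.51, SE 0.20, and -2.91, SE 0.18). Its relative Smoc1 was lower at E8.5 (-1.54, SE 0.32, adjusted p = 0.0117, lost without closed E8.5 replicate 1 at 0.102). Frem2, a basement membrane protein of embryonic epithelia, was lower at E9.5 (-1.75, SE 0.31, adjusted p = 0.00351, lost without the pair of open E9.5 replicates 1 and 2 at 0.07).

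Of the fibrous matrix genes, Col13a1, a transmembrane collagen, was lower in closed tissue at both stages (-2.71, SE 0.21, and -1.44, SE 0.19). Fbn2, a fibrillin of embryonic microfibrils, was higher in closed tissue at E8.5 (1.77, SE 0.20), and Col9a1, a cartilage collagen, was higher at E9.5 (1.46, SE 0.23). Fbn2 also passed as higher at E9.5, a call that was lost with the mean of all its probe sets (0.88, adjusted p = 0.0908). The chondroitin sulphotransferase Chst7 was lower in closed tissue at both stages (-0.89, SE 0.19, and -1.56, SE 0.17), and the E8.5 call was lost without closed E8.5 replicate 1 (0.0985). Among adaptors that tie integrins to actin, Fermt2, which encodes kindlin-2, was lower in closed tissue at E9.5 (-0.94, SE 0.13, adjusted p = 7.70e-04). Parvb, which encodes beta-parvin, was higher at E8.5 (1.17, SE 0.19, adjusted p = 0.0025) and at E9.5 (0.74, SE 0.17, adjusted p = 0.0195). The E9.5 call of Parvb was lost without open E9.5 replicate 1 (0.0586) or 2 (0.0829) or closed E9.5 replicate 1 (0.0792) or 3 (0.0856). Without the pair of open E9.5 replicates 1 and 2 the E9.5 difference of Parvb was 0.57.

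Between the stages, 13 of the 144 other matrix genes were higher and 7 lower at E9.5 in open tissue. In closed tissue 4 were higher and 5 lower. Of all genes, 3.61% were higher and 1.42% lower in open tissue, and 0.960% and 1.46% in closed tissue. Of 12 other basement membrane genes, 2 were higher and 2 lower in open tissue. Smoc2 (0.94, SE 0.18) and Ntn4 (0.44, SE 0.105) rose, calls each lost without some single arrays, while 2 type IV collagen chains fell in open tissue. Col4a6 fell there by 1.32 (log2 difference -1.32, SE 0.17, adjusted p = 9.28e-04) and Col4a5 by 0.82 (-0.82, SE 0.13, adjusted p = 0.00392). Both calls were lost without the pair of open E9.5 replicates 1 and 2 (0.0648 and 0.102). In closed tissue Col4a5 differed by -0.72 (SE 0.15, adjusted p = 0.0285), a call that was lost without closed E8.5 replicate 1 (0.23), open E8.5 replicate 1 (0.0504) or 3 (0.0509), open E9.5 replicate 1 (0.0505) or closed E9.5 replicate 2 (0.125) or 3 (0.084). Frem1 of the same list rose in closed tissue (0.93, SE 0.19), a call also lost without some single arrays.

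Timp4, an inhibitor of matrix metalloproteases, rose in both tissues, by 1.55 (SE 0.15) in open and 2.16 (SE 0.17) in closed tissue. Ugdh, which makes the UDP-glucuronate used for hyaluronan and chondroitin chains, fell in open tissue (-0.71, SE 0.10, adjusted p = 0.00209), where Has2 and Chst15 rose, and the call was lost without the pair of open E9.5 replicates 1 and 2 (0.119). Cemip2, a cell-surface protein linked to hyaluronan breakdown, differed by 0.65 (SE 0.14, adjusted p = 0.0206) in open and 0.80 (SE 0.16, adjusted p = 0.0223) in closed tissue. The open call was lost without open E8.5 replicate 1 (0.107) or 3 (0.0761) or open E9.5 replicate 2 (0.0776), or without the pair of open E9.5 replicates 1 and 2 (0.119). The closed call was lost without closed E8.5 replicate 1 (0.181) or closed E9.5 replicate 1 (0.0731) or 2 (0.0914).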

How the data were processed

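The authors hybridized RNA (50 ng per sample, 2-cycle labelling per the labels) to Affymetrix arrays and deposited log2 signal per probe set (45101 probe sets). The submitters' processing notes name MAS5 with no role. The background correction and normalization are not given in the sources used here, and values were used as deposited. Probe sets with several symbols (932), none (9160) and 64 controls were left out. Genes were named from the platform annotation.

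The 4 groups were fitted as 4 means with limma 3.58.1 in R 4.3.3 (eBayes with an intensity trend, 7 residual degrees of freedom) on 13338 genes, and p-values were adjusted by Benjamini-Hochberg. The fit was tested on simulated data. The members, lists and tests were chosen with earlier results of these data known. All 40 members could be named. Of the other lists, the rule named the called gene of largest difference in each direction per comparison and every called basement membrane gene or integrin, from which examples are printed.

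Same-numbered open and closed arrays deviated together from their group means (correlations over genes of 0.576 and 0.697 at E8.5, which are not independent with 2 closed arrays, and 0.308, 0.341 and 0.687 at E9.5), so the replicate number was taken to pair them within a stage. Pairs of different number reached 0.309 at E8.5, and at E9.5 open replicates 1 and 2 had 0.264 and 0.317 with each other's closed partner, and the labels do not tie the numbers to litters. The replicate number was a fixed block for comparisons of region and a random block (correlation 0.455) for comparisons of stage. Open E8.5 replicate 3 had no closed partner, so the fixed block compared the regions at E8.5 over 2 pairs of arrays. The fixed block also left fewer residual degrees of freedom than the fit without it. Because the block was chosen from these same data, a call gained only with it is not separate evidence. Alternatives were other normalizations, filters, probe set summaries and variance models, the block, RNA quality as a covariate, and arrays left out.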

Additional observations from a re-analysis of the deposited data

Results flagged for a closer look

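The test of the interaction itself passed for 3 genes (limma, adjusted over all genes). These were 2 of the 37 members tested and 1 of the 144 other matrix genes tested, against 1.25% of all genes. Sparcl1 had an interaction of 1.19 (SE 0.23, adjusted p = 0.0328), with region differences (closed minus open) of -1.53 at E8.5 and -0.34 at E9.5. Has2 had -1.27 (SE 0.25, adjusted p = 0.0328), with region differences of -0.43 at E8.5 and -1.70 at E9.5. The Sparcl1 and Has2 calls were each lost without most of the arrays, left out in turn, as given above. Ptprz1, a chondroitin sulphate proteoglycan and phosphatase of neural progenitors outside the members, had 1.87 (SE 0.30, adjusted p = 0.0109, and 0.0595 without closed E8.5 replicate 2). With the mean of all its probe sets the value was 0.91 and the call was lost (adjusted p = 0.163). Its signals were 8.51, 8.36 and 8.12 in open and 9.71 and 9.37 in closed tissue at E8.5, and 5.42, 5.90 and 5.07 against 8.73, 8.42 and 8.47 at E9.5. Groups of 2 or 3 arrays are too small for the test of single outlying arrays.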

How the results depend on the processing

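The 45 member differences past the threshold were refitted under up to 22 alternatives each (983 refits). The direction was kept in all 983, and the call in 835 and not in 148, and 23 of the 45 kept the call whichever array was left out. The difference itself is unchanged in refits that alter only the filter or the intensity trend or fit only the groups compared. It is also unchanged without an array of a group not compared. In such refits the direction was fixed in advance. Genes tested at E9.5 between regions gave 4 higher and 9 lower, which became 7 and 15 with array weights (6.29 for open E9.5 replicate 1, 0.314 for replicate 3), 7 higher with the replicate block, and 2 and 4 without the pair of open E9.5 replicates 1 and 2, where 1 array stands for that group and is assumed to vary like the others. Over all genes, array weights raised the number called in this comparison from 1139 to 3424 of 13338, and for stage in open tissue from 670 to 4301. For stage in open tissue, 7 higher and 2 lower became 4 lower with quantile normalization, 11 and 10 with array weights, and 3 and 0 without those replicates. For stage in closed tissue, 2 lower became 4 with the 3-prime excess as a covariate. The interaction, 1 higher and 1 lower, became 0 lower with quantile normalization, 2 higher with array weights, 3 and 4 with the replicate block, 2 higher with the 3-prime excess, and 0 lower without those replicates. The cause was not tested. With 1 array left out in turn, the numbers higher and lower ranged over 3 to 4 and 4 to 10 (region, E8.5), 4 to 5 and 5 to 10 (region, E9.5), 4 to 9 and 1 to 4 (stage, open), 3 to 6 and 2 to 4 (stage, closed) and 0 to 2 and 0 to 2 (interaction). The replicate block, fixed for region and interaction and random for stage, kept all 45 calls. It was chosen from these data and raised the number called between regions over all genes, so this is no separate check of those calls. Fitting only the groups compared gives no interaction. Signal near the filter limits Has3, Itga8 and Itgb3.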
